A study of Mus musculus with 4 samples.

Results

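The receptors for the Fc part of antibody, the chains that carry their signals and the kinase that receives them were examined in mouse blood. The members were the activating IgG receptors Fcgr1, Fcgr3 and Fcgr4, the inhibitory IgG receptor Fcgr2b, the signalling chains Fcer1g and Tyrobp, the kinase Syk and the IgG transport receptor Fcgrt. They were chosen by gene symbol, as the rows with a value in all 4 libraries of the deposited expression table. All 8 were found among the 17823 genes with values, and 6 of them were among the 5339 genes tested. Fcgr1 and Fcgrt had a mean level under 0.5 FPKM (fragments per kilobase of transcript and per 1000000 mapped fragments) over the 4 libraries, and were not tested. The blood came from C57BL/6 mice, called adult in the labels and 12 months old in the study's methods. The 2 Nar libraries came from mice given naringenin (Nar), a flavonoid, for 30 days, injected into the tail vein at 20 mg/kg. The 2 control (Ctrl) libraries came from mice given PBS for the same 30 days. In both groups the libraries are numbered 1 and 3. The labels do not state that each library came from a different mouse, so the p-values measure the spread between these libraries.

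IgG that has bound its target is read by Fc receptors on white blood cells. The activating receptors hold almost no signalling part of their own and rely on Fcer1g, a small chain with an activation motif (ITAM) that Src family kinases phosphorylate and that Syk then binds. Fcgr2b carries an inhibitory motif (ITIM), which recruits the phosphatase SHIP1 (encoded by Inpp5d) and raises the level of stimulus a cell needs. Tyrobp, also called DAP12, is the sister chain of Fcer1g and serves other receptors of myeloid and natural killer (NK) cells. Fcgrt encodes the heavy chain of the neonatal Fc receptor, which pairs with B2m and protects IgG from breakdown.

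Red cell RNA took most of every library. Haemoglobin genes held 95.1% and 92.6% of the summed FPKM in Ctrl 1 and Ctrl 3, and 95.8% and 96.4% in Nar 1 and Nar 3. The median FPKM of the tested genes was 1.85 and 1.97 in the Ctrl libraries and 0.89 and 0.74 in the Nar libraries, so the median log2 difference, Nar minus Ctrl, over all tested genes was −1.07. Markers of neutrophils, monocytes, B cells, T cells, NK cells and platelets were detected in every library, as blood should hold. In Ctrl 3 the platelet markers summed to 2066 FPKM, against 664.3 in Ctrl 1, 583.9 in Nar 1 and 430.3 in Nar 3. Depth was estimated from low values, which for short genes with 1 transcript tended towards whole multiples of a step. It came to about 22200000 to 22700000 mapped fragments for each library, although only 66.7% to 72.0% of those values lay within 0.25 of a step of a whole multiple, where evenly spread values would give 50%.

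The results revealed lower levels of most members in Nar-treated mice compared with the control group. Of the 6 tested members, 5 fell (limma, adjusted p under 0.05 and a fold over 2), namely Fcgr3, Fcgr4, Fcgr2b, Fcer1g and Tyrobp, and 0 rose. Among all tested genes 39.3% were called lower. Both Nar libraries lay below both Ctrl libraries for 6 of the 6 tested members, and for 78.3% of all tested genes. In a bulk sample, fewer cells of a type and less RNA per cell cannot be told apart. The libraries were then scaled by the median of their gene ratios, which removes the shift common to most genes. After this scaling 0 members passed in limma, where 0.599% of all tested genes were called lower. An unadjusted p under 0.05 was found for 3 of the 6 tested members and for 797 of all 5339 tested genes. The calls also rested on all 4 libraries, as did most calls among all tested genes. Leaving 1 library out leaves a group with a single library. The log2 difference then ranged from −3.23 to −2.60 for Fcgr3, −2.78 to −2.42 for Tyrobp and −2.865 to −1.904 for Fcgr4. It ranged from −2.14 to −1.30 for Fcer1g, −1.90 to −1.39 for Fcgr2b and −1.32 to −1.05 for Syk.

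**Figure D1:**
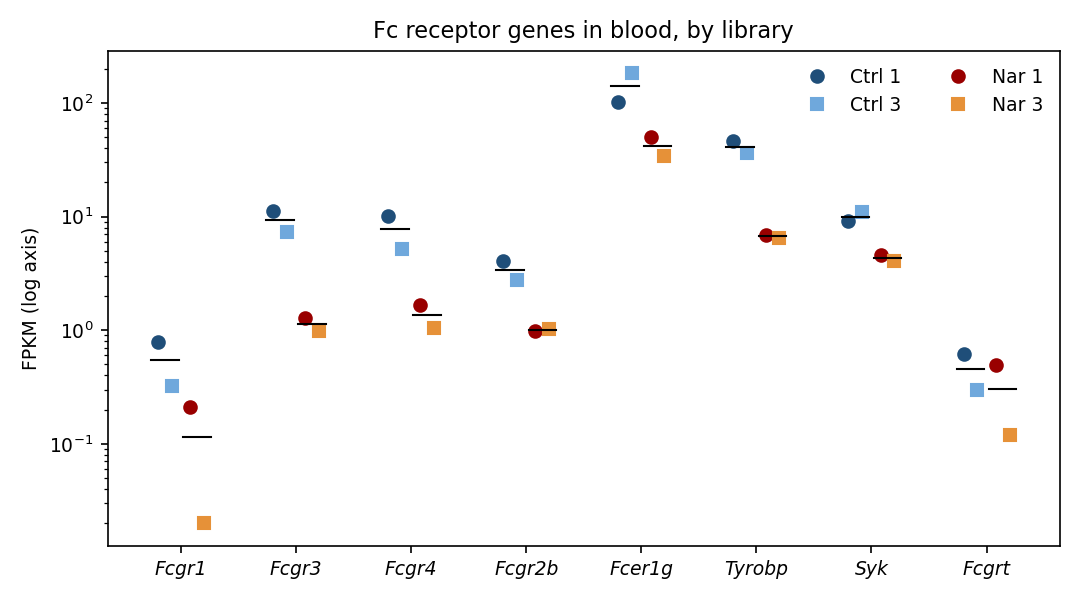
FPKM of the 8 members in each of the 4 libraries on a log axis, with 1 point a library and a line at each group mean. The Nar points lie below the Ctrl points for every member except Fcgrt, whose groups overlap.

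Fcgr3 encodes the low-affinity activating receptor CD16, found on neutrophils, monocytes, macrophages and NK cells. It lies at chr1:171051169-171065915 of the GRCm38 mouse genome (RefSeq gene 14131). Its level was 11.3 FPKM in Ctrl 1 and 7.28 FPKM in Ctrl 3, against 1.27 FPKM in Nar 1 and 0.98 FPKM in Nar 3. The groups were far apart, with means of 9.29 ± 2.84 and 1.125 ± 0.205 FPKM (SD, n = 2 each), an 8.26-fold lower mean in Nar. The log2 difference was −2.91 (SE 0.435, limma adjusted p = 0.0051), which is 1.84 below the median of all tested genes, and 1.80% of tested genes had a lower value. Fcgr3 was the tested member with the largest difference.

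Fcgr4 encodes an activating receptor of neutrophils and monocytes that binds IgG2a and IgG2b. It lies at chr1:171018926-171029761 (gene 246256), in the same cluster. Its level was 10.22 FPKM in Ctrl 1, 5.2 FPKM in Ctrl 3, 1.66 FPKM in Nar 1 and 1.04 FPKM in Nar 3. Ctrl 1 was the highest library and Nar 3 the lowest, as for Fcgr3. The log2 difference was −2.38 (SE 0.482, limma adjusted p = 0.0127), or 1.31 below the all-gene median, and the mean was 5.71-fold lower in Nar.

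Fcgr1 encodes CD64, the high-affinity receptor that binds single IgG molecules, and lies apart from the others at chr3:96282909-96293969 (gene 14129). It was barely detected, with 0.78 FPKM in Ctrl 1, 0.32 FPKM in Ctrl 3, 0.21 FPKM in Nar 1 and 0.02 FPKM in Nar 3. At the estimated depth these levels stand for about 45, 18, 12 and 1 fragments. The Nar libraries were below the Ctrl libraries, with an untested log2 difference of −1.66. That value became −0.46 with a pseudocount of 1 and −2.65 with 0.01, so its size is set largely by the pseudocount.

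Fcgr2b, the inhibitory receptor of B cells and myeloid cells, lies at chr1:170960558-170976071 (gene 14130). Its level was 4.03 FPKM in Ctrl 1 and 2.79 FPKM in Ctrl 3, against 0.98 FPKM in Nar 1 and 1.03 FPKM in Nar 3. The groups did not overlap and the Nar libraries were nearly equal. The log2 difference was −1.64 (SE 0.380, limma adjusted p = 0.0186) and the mean was 3.39-fold lower in Nar. Relative to the all-gene median Fcgr2b was lower by a log2 value of −0.57, and 13.8% of tested genes had a lower log2 difference.

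**Figure D2:**
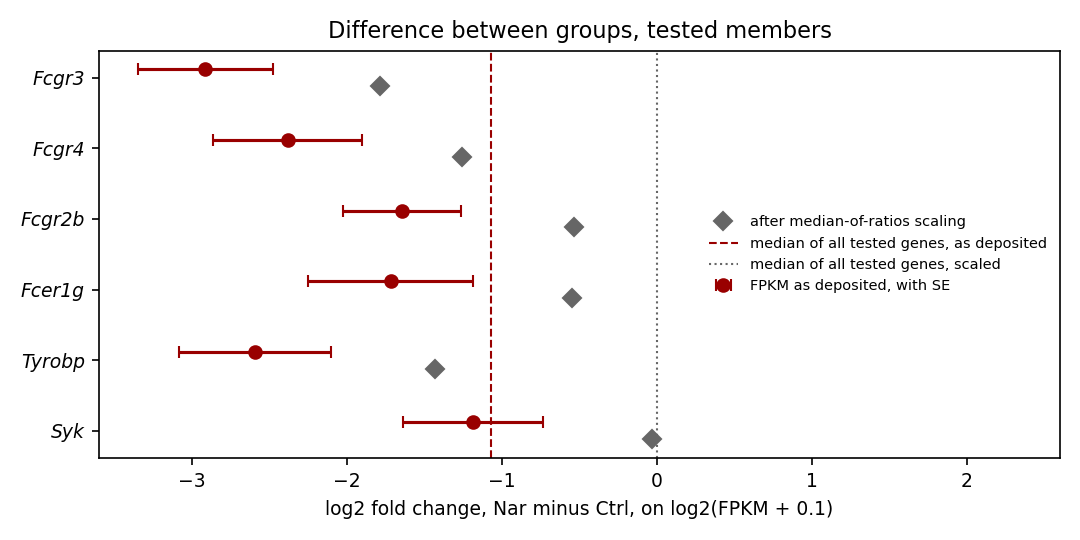
Log2 difference, Nar minus Ctrl, of the 6 tested members on the deposited FPKM, with its standard error, and after median-of-ratios scaling. The dashed line marks the median of all tested genes on the deposited scale, −1.07, and Fcgr3, Tyrobp and Fcgr4 lie farthest below it.

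Activating and inhibitory receptors were then set against each other within each library, which a scaling of the whole library does not move apart from the pseudocount. The FPKM of Fcgr3 was 2.80 times that of Fcgr2b in Ctrl 1 and 2.61 times in Ctrl 3, but 1.30 times in Nar 1 and 0.952 times in Nar 3. Both Nar libraries were thus nearer to equal levels of the activating and the inhibitory receptor. At the estimated depth, and depending on the transcript length used, the Nar levels rest on about 16 to 39 and 12 to 30 fragments for Fcgr3, and on 24 to 79 and 25 to 83 for Fcgr2b. The log2 ratio, computed with a pseudocount of 0.1, was lower in Nar by a difference of −1.27 (SE 0.212). The exact two-sided permutation p was 0.33, the smallest that 2 libraries against 2 allow, and 0.42 after Benjamini-Hochberg adjustment over the 5 pairs compared.

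As a ratio of FPKM, Fcgr4 over Fcgr2b was 2.54 and 1.86 in Ctrl 1 and 3, and 1.69 and 1.01 in Nar 1 and 3. The Nar libraries were again lower, but Nar 1 lay close to Ctrl 3. At the estimated depth the Fcgr4 levels rest on about 47 fragments in Nar 1 and 30 in Nar 3. The difference of the log2 ratio was −0.74 (SE 0.412, exact permutation p = 0.33), and it ranged from −1.09 without Nar 1 to −0.39 without Nar 3. For Fcgr1 over Fcgr2b the log2 ratios of the groups overlapped, with a difference of −0.01 (SE 0.769, exact permutation p = 1). Its sign turned with the library left out, at 0.26 without Ctrl 1 and 0.71 without Nar 3. Of the 3 activating receptors, 2 were therefore lower against Fcgr2b in both Nar libraries, and 1 gave no direction. These ratios share Fcgr2b as denominator, and the share of all tested genes that were lower against it in both was not computed. Of all tested genes 13.8% had a lower log2 difference than Fcgr2b.

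**Figure D3:**
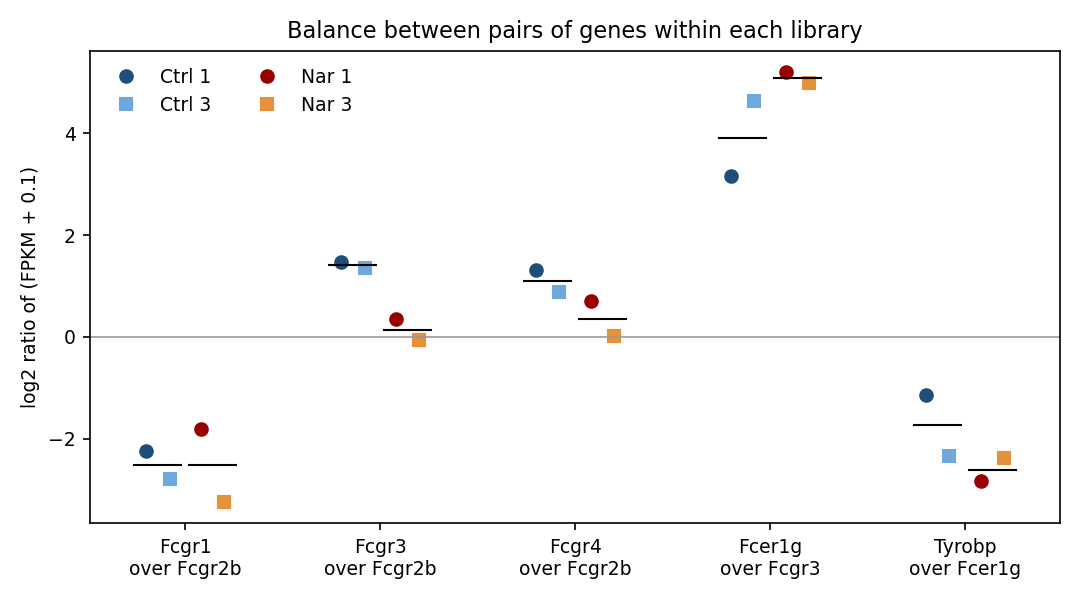
Log2 ratio between pairs of members in each library, computed on FPKM plus 0.1, with 1 point a library and a line at each group mean. Fcgr3 over Fcgr2b and Fcgr4 over Fcgr2b are lower in both Nar libraries, Fcer1g over Fcgr3 is higher in both, and Fcgr1 over Fcgr2b overlaps.

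Fcgr3 and Fcgr2b share coding sequence, and reads inside it cannot be assigned to one of the genes. Of the 50-base windows in Fcgr3 transcripts (GENCODE M21), 10.2% were also found in another gene, namely Fcgr2b, and 10.7% of the Fcgr2b windows were found in some other gene. The other 6 members shared 0 windows. The longest shared coding run is shown because it is the stretch where the activating and the inhibitory transcript look the same to a short read. It is 129 bases long, covers coding bases 278 to 406 of Fcgr2b (within chr1:170966674-170968081, minus strand) and 263 to 391 of Fcgr3 (within chr1:171054167-171057792, minus strand), and spans exons 3 and 4 of both.

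Fcgr2b and Fcgr3 shared run: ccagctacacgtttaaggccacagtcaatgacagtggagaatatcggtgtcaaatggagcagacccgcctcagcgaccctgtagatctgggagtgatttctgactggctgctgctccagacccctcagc

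How the authors' counting divided such reads is not given in the sources used here.

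The sequences before the start sites of the IgG receptors are shown because PU.1, the myeloid factor encoded by Spi1, is known to act on several of them. The PU.1 core letters GAGGAA, or the reverse complement TTCCTC, were looked for on both strands of the 250 bases before each RefSeq start site (GRCm38.p6). They were found for 4 of the 7 members with a window, Fcgr1, Fcgr3, Fcgr4 and Syk, and in 23.3% of all 32851 windows, or for 25.9% of all genes. Tyrobp had no window. The stretches below run 5′ to 3′ on the gene's strand, with the motif in capitals, and leave out bases that GENCODE M21 places in exons of the same gene. This removed 187 of the 250 bases for Fcgr2b, 27 for Fcgr3, 6 for Fcgr4 and 0 for Fcgr1. The 63 bases left for Fcgr2b lie between exons of its own transcripts, 119 to 57 bases before the RefSeq start. The Fcgr3 stretch lies inside the RefSeq span of the gene, between bases of its own exons and the start used. The stretches are chr3:96293970-96294219 (minus) for Fcgr1, chr1:171059404-171059626 (minus) for Fcgr3, chr1:171018676-171018919 (plus) for Fcgr4 and chr1:170976128-170976190 (minus) for Fcgr2b.

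Fcgr1: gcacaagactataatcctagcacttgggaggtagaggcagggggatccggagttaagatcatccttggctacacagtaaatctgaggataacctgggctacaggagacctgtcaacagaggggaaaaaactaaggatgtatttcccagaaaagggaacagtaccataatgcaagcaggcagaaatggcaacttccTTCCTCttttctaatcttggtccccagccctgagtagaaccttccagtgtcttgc
Fcgr3: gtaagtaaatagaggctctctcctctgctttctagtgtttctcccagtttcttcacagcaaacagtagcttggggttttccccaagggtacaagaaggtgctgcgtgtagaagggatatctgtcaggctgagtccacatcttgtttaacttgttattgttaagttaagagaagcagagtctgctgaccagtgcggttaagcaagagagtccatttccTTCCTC
Fcgr4: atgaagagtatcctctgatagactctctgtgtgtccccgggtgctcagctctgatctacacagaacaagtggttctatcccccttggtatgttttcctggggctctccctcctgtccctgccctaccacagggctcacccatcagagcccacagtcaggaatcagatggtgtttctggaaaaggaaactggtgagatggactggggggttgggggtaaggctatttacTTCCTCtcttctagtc
Fcgr2b: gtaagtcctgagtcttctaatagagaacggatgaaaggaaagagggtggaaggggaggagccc

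The motif began 55 bases before the start of Fcgr1, 6 bases before the first start of Fcgr3 and 22 bases before that of Fcgr4. The starts used for Fcgr3 and Syk lie inside the RefSeq spans of these genes, so the bases before them do not lie before the gene. These letters were not found in the whole 250-base windows of Fcgr2b, Fcer1g and Fcgrt, or before the first start of Syk. A match of letters is not a measurement of binding. Spi1 itself fell, with 18.86 and 16.22 FPKM in Ctrl and 2.28 and 2.63 FPKM in Nar (log2 difference −2.79, limma adjusted p = 0.00609), but it did not pass after median-of-ratios scaling (−1.63, adjusted p = 0.10). The part of Spi1 in the members' differences was not tested.

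**Figure D4:**
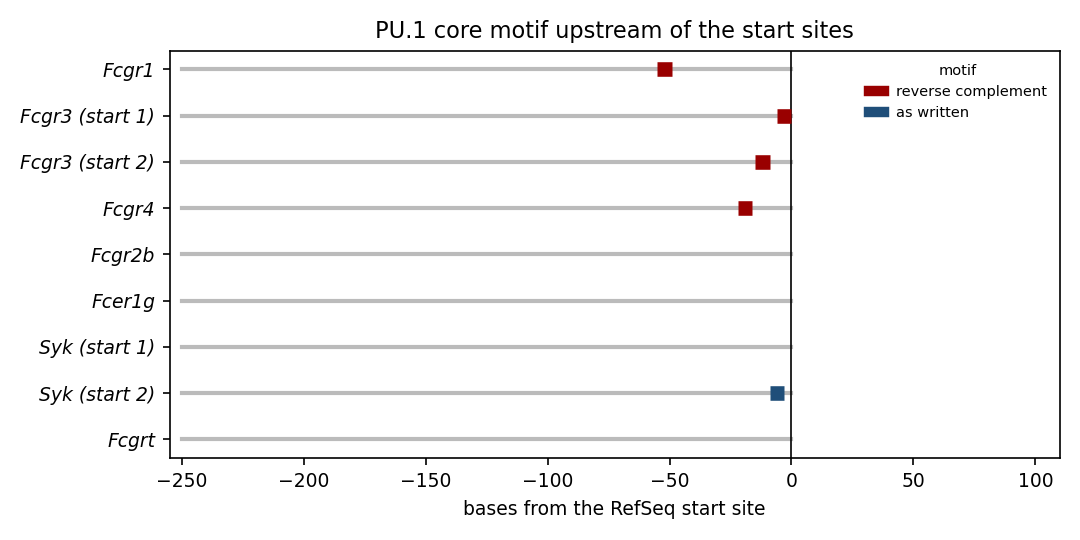
Position of the PU.1 core motif in the 250 bases before each RefSeq start site of the members other than Tyrobp, which had no window. Positions are in bases from the start, coloured by the strand of the letters. The motif lies within 55 bases of a start for Fcgr1, Fcgr3, Fcgr4 and the second start of Syk, and is not in the windows of Fcgr2b, Fcer1g and Fcgrt. The starts of Fcgr3 and Syk lie inside the RefSeq spans of these genes.

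Of the signalling chains, Tyrobp was farther below the all-gene median than Fcer1g. Tyrobp (chr7:30413782-30417582, gene 22177) was at 46.4 FPKM in Ctrl 1, 36.13 FPKM in Ctrl 3, 6.93 FPKM in Nar 1 and 6.46 FPKM in Nar 3. The replicates were close within each group and the mean was 6.16-fold lower in Nar. The log2 difference was −2.60 (SE 0.490, limma adjusted p = 0.0102), or 1.52 below the all-gene median.

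Fcer1g (chr1:171229572-171234349, gene 14127) is also the chain of the collagen receptor Gp6 on platelets and of the IgE receptor on basophils and mast cells. It was the most abundant member in every library, at 102 FPKM in Ctrl 1, 182.9 FPKM in Ctrl 3, 50.11 FPKM in Nar 1 and 34.2 FPKM in Nar 3. Unlike the receptors, it was highest in Ctrl 3, the library with the highest platelet markers. The log2 difference was −1.72 (SE 0.535, limma adjusted p = 0.0358), or 0.65 below the all-gene median, and it was −1.30 (adjusted p = 0.124) without Ctrl 3 and −2.14 (adjusted p = 0.0826) without Ctrl 1. The part of platelet RNA in this difference was not tested.

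Against the activating receptors that need it, Fcer1g was higher in both Nar libraries for Fcgr3, but not for Fcgr4 or Fcgr1. Its FPKM was 9.03 times that of Fcgr3 in Ctrl 1 and 25.1 times in Ctrl 3, against 39.5 times in Nar 1 and 34.9 times in Nar 3. The Ctrl libraries differed widely, and the log2 ratio was higher in Nar by 1.19 (SE 0.741, exact permutation p = 0.33), from 0.46 without Ctrl 1 to 1.93 without Ctrl 3. Over Fcgr4, a pair added after values were seen, the FPKM ratio was 9.99 and 35.2 in Ctrl and 30.2 and 32.9 in Nar, so the groups overlapped, as they did for the barely detected Fcgr1. As a ratio of FPKM, Tyrobp over Fcer1g was 0.455 and 0.198 in Ctrl 1 and 3, and 0.138 and 0.189 in Nar 1 and 3. The difference of its log2 ratio was −0.88 (SE 0.641, exact permutation p = 0.33), from −0.27 without Ctrl 1 to −1.48 without Ctrl 3, and Nar 3 was almost level with Ctrl 3.

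Syk, the kinase that docks on phosphorylated ITAMs, had the smallest difference of the tested members. It lies at chr13:52582610-52648792 (gene 20963) and was at 9.07 FPKM in Ctrl 1, 10.95 FPKM in Ctrl 3, 4.56 FPKM in Nar 1 and 4.1 FPKM in Nar 3. The groups did not overlap, but the log2 difference of −1.19 (SE 0.452, limma adjusted p = 0.061) did not pass, and 40.5% of tested genes had a lower one. After median-of-ratios scaling it was −0.03.

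Fcgrt (chr7:45092993-45103822, gene 14132) was near the detection limit, at 0.62 FPKM in Ctrl 1, 0.3 FPKM in Ctrl 3, 0.49 FPKM in Nar 1 and 0.12 FPKM in Nar 3. It was the member whose groups overlapped, and its untested log2 difference of −0.57 became 0.28 after median-of-ratios scaling and 0.14 without Nar 3. B2m, the light chain of the Fcgrt protein and of MHC class I, was at 1013 FPKM in Ctrl 1, 4728 FPKM in Ctrl 3, 779.1 FPKM in Nar 1 and 503.6 FPKM in Nar 3. It fell (log2 difference −1.81, limma adjusted p = 0.0496), and Ctrl 3 stood far above the other libraries.

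On the FPKM scale, which is per length, the order of levels in Ctrl was Fcer1g, Tyrobp, then Syk, Fcgr3 and Fcgr4 with overlapping values, then Fcgr2b, then Fcgr1 and Fcgrt with overlapping values. In Nar the order was Fcer1g, Tyrobp, Syk, then Fcgr4, Fcgr3 and Fcgr2b, each overlapping the next, then Fcgrt and Fcgr1, which also overlapped. Fcgr3 and Fcgr4 were thus both apart from Fcgr2b in Ctrl. In Nar the range of Fcgr3 overlapped that of Fcgr2b, while Fcgr4, at 1.04 FPKM or more, lay just above its highest value of 1.03 FPKM.

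Genes downstream of the activating receptors were examined next. Of 16 kinases, adaptors and enzymes of ITAM signalling, 11 fell and 0 rose, where 39.3% of all tested genes were called lower. Both Nar libraries lay below both Ctrl libraries for 16 of 16, against 78.3% of all tested genes. The median log2 difference was −1.54, against −1.07 for all tested genes. Card9, an adaptor of ITAM-coupled receptors in myeloid cells, was at 2.16 and 0.88 FPKM in Ctrl and at 0.18 and 0.16 FPKM in Nar (log2 difference −2.46, limma adjusted p = 0.0111). It reached the mean of 0.5 FPKM needed for testing only through the Ctrl libraries. Fgr, a Src family kinase of myeloid cells, was at 8.5 and 4.12 FPKM in Ctrl and at 1.28 and 1.22 FPKM in Nar (−2.16, adjusted p = 0.015). Lyn, Btk, Plcg2, Pik3r1 and Sh3bp2 did not pass. Btk, a kinase of B cells and myeloid cells, had a log2 difference of −0.63 (limma adjusted p = 0.158).

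Of 7 phosphatases, adaptors and ligases on the inhibitory side, 3 fell and 0 rose, with a median of −1.38. This count is near the background of 39.3% of all tested genes and is not a result about the inhibitory side. Those that fell were the adaptors Dok3 (log2 difference −1.72, limma adjusted p = 0.0319) and Dok1 (−1.39) and the ubiquitin ligase Cbl (−1.50). Inpp5d, whose product SHIP1 docks on Fcgr2b, was at 3.72 and 4.37 FPKM in Ctrl and at 2.41 and 1.67 FPKM in Nar. It did not pass (−0.97, limma adjusted p = 0.080). Ptpn6, which encodes the phosphatase SHP-1, did not pass either (−1.38, adjusted p = 0.0708).

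Of 10 tested receptors that pair with Fcer1g or Tyrobp, 6 fell and 0 rose, with a median of −1.89, against the same background of 39.3% called lower. Trem1, a Tyrobp-coupled receptor of neutrophils and monocytes, was at 4.24 and 4.93 FPKM in Ctrl and at 0.53 and 0.59 FPKM in Nar (log2 difference −2.83, limma adjusted p = 0.00427). Sirpb1a also fell, with 2.57 and 1.49 FPKM in Ctrl and 0.21 and 0.33 FPKM in Nar (−2.50, limma adjusted p = 0.00582). It reached the mean of 0.5 FPKM needed for testing only through the Ctrl libraries. Gp6, the platelet partner of Fcer1g, was at 14.01 and 37.28 FPKM in Ctrl and at 17.3 and 8.15 FPKM in Nar, with overlapping groups (−0.94, adjusted p = 0.222).

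Of 11 other inhibitory receptors with ITIMs, 8 fell and 0 rose, with a median of −2.28, again against 39.3% of all tested genes. Lilrb4a, an inhibitory receptor of myeloid cells, was at 42.78 and 28.69 FPKM in Ctrl and at 1.74 and 2.9 FPKM in Nar (log2 difference −3.90, limma adjusted p = 0.00427), and it also passed after median-of-ratios scaling (−2.75, adjusted p = 0.0451). Clec12a, a myeloid C-type lectin, fell as well, with 3.94 and 2.13 FPKM in Ctrl and 0.55 and 0.14 FPKM in Nar (−2.93, limma adjusted p = 0.00802). Its Nar mean of 0.345 FPKM was under the 0.5 needed for testing, which it reached through the Ctrl libraries. The B cell receptors Cd22 and Cd72 did not pass, at −0.63 and −0.71.

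Of the other receptors for antibody 4 could be tested. In limma 0 of them passed, 0 had an unadjusted p under 0.05, and their median log2 difference was −0.20. Fcrla, an Fc receptor-like protein of B cells, was at 1.84 and 1.32 FPKM in Ctrl and at 2.16 and 2.14 FPKM in Nar, so that both Nar libraries were above both Ctrl libraries (0.44, limma adjusted p = 0.320). The IgM receptor Fcmr and the low-affinity IgE receptor Fcer2a were at −0.24 and −0.17. Of the transcription factors known to act on Fcgr and Fcer1g genes, 5 of 5 fell, where 39.3% of all tested genes were called lower, with a median of −1.74 against −1.07 for all tested genes, and Cebpb, a myeloid factor, had a log2 difference of −2.85 (limma adjusted p = 0.00582). After median-of-ratios scaling, 1 of all 54 tested genes of these lists was called, against 34 before it. Of all 5339 tested genes 42 were called after it, against 2106 before it.

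All neutrophil markers and most monocyte markers fell, as most tested members did, where 39.3% of all tested genes were called lower. Of 11 neutrophil markers 11 fell, with a median log2 difference of −3.77, and their summed FPKM was 1436 to 1737 in Ctrl and 105.1 to 164.4 in Nar. Of 9 monocyte markers 6 fell, with a median of −1.83, and their sum was 362.8 to 421.1 FPKM in Ctrl and 97.59 to 141.3 FPKM in Nar. Itgam and Lyz2 on the monocyte list are also expressed by neutrophils. After median-of-ratios scaling, 5 of the 11 neutrophil markers and 1 of the 9 monocyte markers were called lower, against 0.599% of all tested genes. Of 7 NK markers 1 fell, a share below that of all tested genes, with a sum of 19.2 to 22.45 FPKM in Ctrl and 5.11 to 10.45 FPKM in Nar.

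Lymphocyte, platelet and erythroid markers had medians nearer to 0. Of 8 B cell markers 0 passed in limma and 0 had an unadjusted p under 0.05, with a median of −0.38 and a sum of 30.2 to 41.14 FPKM in Ctrl and 30.06 to 31.09 FPKM in Nar. For T cells 0 of 6 passed in limma and 1 had an unadjusted p under 0.05, with a median of −0.45. For platelets 0 of 8 passed in limma and 1 had an unadjusted p under 0.05, with a median of −0.997. For erythroid genes 0 of 13 passed in limma and 0 had an unadjusted p under 0.05, with a median of 0.37. Of the 9 basophil, mast cell and eosinophil markers only 2 could be tested, 0 passed in limma with 1 at an unadjusted p under 0.05, and Fcer1a, Cpa3, Siglecf and Prg2 were at 0 in at least 1 library. None of the neutrophil, monocyte, NK, B cell or platelet markers was at 0 in any library. The part of cell composition in the members' differences was not tested.

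**Figure D5:**
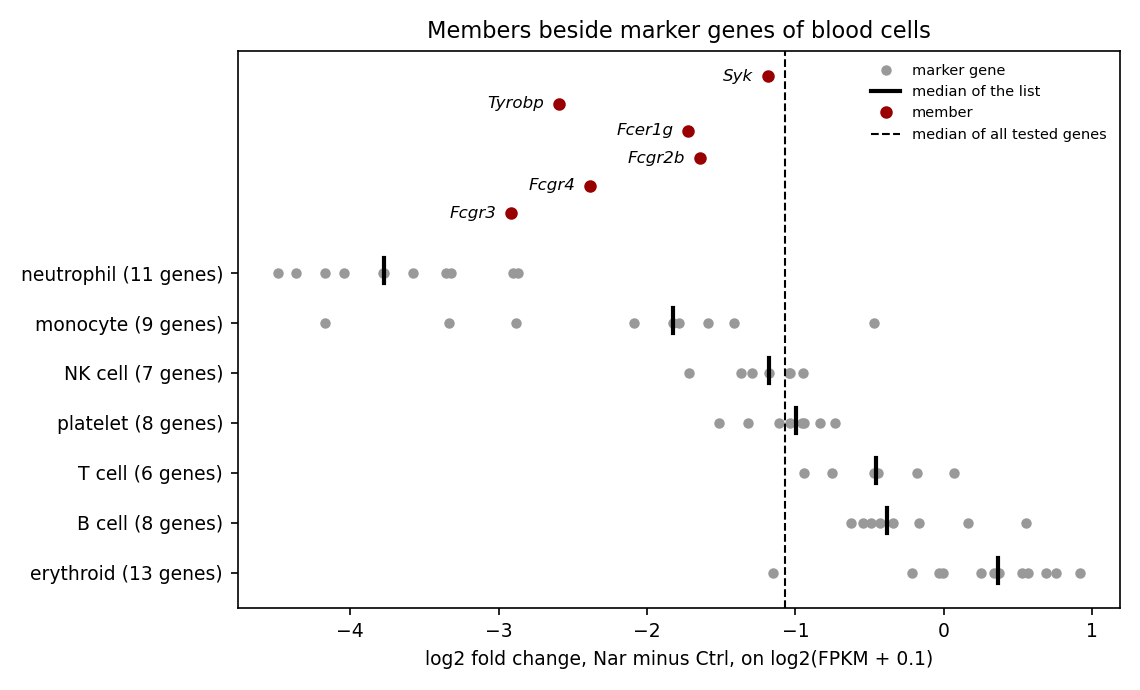
Log2 difference, Nar minus Ctrl, of each tested marker gene by blood cell type, with the 6 tested members above them, a bar at the median of each list and a dashed line at the all-gene median of −1.07. The members, from −2.91 for Fcgr3 to −1.19 for Syk, lie between the median of the neutrophil markers, −3.77, and those of the B and T cell markers, −0.38 and −0.45.

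Ratios within a library to each tested marker of 1 cell type were added after values had been seen, and are given as a description. Fcgr3 over the 11 neutrophil markers was higher in both Nar libraries for 7 and overlapped for 4, with a median difference of the log2 ratio, Nar minus Ctrl, of 0.85 (range −0.05 to 1.57). Fcgr3 was thus lower in Nar by less than most of these markers. Fcgr2b over the 8 B cell markers was lower in both Nar libraries for 7 and overlapped for 1, with a median difference of −1.26 (range −2.20 to −1.02). Fcer1g over the 8 platelet markers was lower in both Nar libraries for 5 and overlapped for 3, with a median difference of −0.72 (range −0.99 to −0.21). The share of all tested genes with such ratios was not computed, and the ratios of each set share 1 numerator. Of all tested genes 13.8% had a lower log2 difference than Fcgr2b, and 11.3% than Fcer1g. The Fcgr2b and Fcer1g counts are therefore not a result about B cells or platelets.

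Of all tested genes outside the members, those whose pattern over the 4 libraries was nearest to Fcer1g were Rhog, Dedd2 and Mboat7, with root-mean-square differences of 0.060, 0.081 and 0.090 on the centred log2 scale. Nearest to Fcgr2b were Rnf34, Vim and Trpv2, at 0.016, 0.031 and 0.035.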

How the data were processed

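For each of the 4 blood libraries the authors deposited 1 FPKM value per gene, given to 2 decimals. Per the labels, mRNA was selected with oligo(dT) beads. The study's methods name alignment with bowtie-2, while the submitters' processing notes name TopHat2, Cufflinks and GRCm38, without versions. FPKM is a share of each library and not an amount per volume of blood. From these values log2(FPKM + 0.1) was computed for the 5339 genes whose mean FPKM reached 0.5, and limma 3.58.1 (R 4.3.3; lmFit, eBayes with trend) was applied, with Benjamini-Hochberg adjustment over all tested genes. A gene was called at an adjusted p under 0.05 and a fold over 2. The fit was checked on simulated data with 200 of 5339 genes changed by a log2 value of 3. It recovered 136 of them, with 5 false calls, and made 0 calls where no gene was changed. A shift common to most genes was not simulated. Ratios between members were tested by exact two-sided permutation, which with 2 libraries against 2 cannot go below 0.33. Median-of-ratios scaling used tested genes above 0 in all 4 libraries.

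The members and lists were chosen with earlier results of these data known. Named genes are the members, the 2 largest changes of each list that passed, genes that went against their list, and the 3 nearest genes to Fcer1g and Fcgr2b; other named genes, among them Btk, Inpp5d, Ptpn6 and Gp6, were added after their values were seen. Promoters are from RefSeq (GRCm38.p6), transcripts from GENCODE M21 and gene coordinates from the RefSeq gene table of the same build. Protein sequences were not analysed here. Alternatives were other pseudocounts (1, 0.01), a mean FPKM minimum of 5 or none, rescaling to TPM, haemoglobin genes removed, the replicate block, median-of-ratios scaling, no trend in limma and each library left out. Figures came from Python 3.11.15 and matplotlib 3.10.9.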

Additional observations from a re-analysis of the deposited data

How the results depend on the processing

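The count of called genes was 2106 of 5339. It was 670 with a pseudocount of 1, 117 of 1083 with a mean FPKM of at least 5, 256 with haemoglobin genes removed, 42 after median-of-ratios scaling, 0 of 16382 in limma with no filter (4978 had an unadjusted p under 0.05), and 0 to 258 with 1 library left out. Members called were 5 of 6, and 3 of 4 with a mean FPKM of at least 5, 3 of 6 with haemoglobin genes removed (Fcgr3, Fcgr4 and Tyrobp), 0 after median-of-ratios scaling, 0 of 8 with no filter (6 had an unadjusted p under 0.05) and 0 to 1 with 1 library left out. Genes of the pathway lists called were 34 of 54, and 6 of 13, 10, 1, 0 of 62 (38 at an unadjusted p under 0.05) and 0 to 7 under the same settings in that order. Leaving out a library leaves 1 group with a single library, assumed to vary like the others. The causes were not tested.

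Limma adjusted p over the alternatives other than the crossed numbers ranged from 0.000636 to 0.113 for Fcgr3, 0.00999 to 0.212 for Fcgr4, 0.0186 to 0.666 for Fcgr2b, 0.0312 to 0.729 for Fcer1g, 0.000557 to 0.138 for Tyrobp and 0.0454 to 0.991 for Syk, which among these passed only in limma without the trend. All 6 kept a negative difference under these alternatives. Fcgr3 over Fcgr2b and Fcgr4 over Fcgr2b stayed negative, at −1.47 to −1.07 and −1.09 to −0.39 with 1 library left out. Fcgr1 over Fcgr2b turned positive with a pseudocount of 1 (0.66) and with TPM (0.22), and ranged from −0.73 to 0.71 with 1 library left out.

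The groups share the replicate numbers 1 and 3 in the labels, which do not say what the numbers stand for. Same-numbered libraries did not deviate together (correlation −0.153 across genes). With 2 libraries a group this cannot show whether they shared a batch. With the replicate block 1813 genes, 4 members and 31 pathway genes were called, and Fcer1g was the member lost. With the numbers crossed, chosen after seeing the data, 2861 genes, 6 members (Syk included) and 40 pathway genes were called. Depth limits Fcgr1 and Fcgrt most, and also Fcgr3, Fcgr4 and Fcgr2b in the Nar libraries.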
